A study of Mus musculus with 6 samples.

Results

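The genes described here encode the cytosolic translation initiation factors (eIFs), the translation elongation factors (eEFs) and the enzymes and binding proteins that carry their names. Members were the protein-coding mouse genes whose RefSeq symbol starts with Eif or Eef followed by a digit and that an array probe matched through its accession. There were 70 such genes among the 23462 genes matched on the array, covered by 109 probes, with 42 genes on 1 probe and 28 on several. Their signal was compared between BV2 cells with and without overexpression of PGC-1α, a transcriptional coactivator of mitochondrial genes. BV2 is an immortalized mouse microglial cell line, and every sample had received LPS (lipopolysaccharide, a bacterial membrane component), whose dose and time the sample labels do not give. By the study's methods, PGC-1α came from a lentivirus whose vector name lists Ubi, SV40, EGFP and puromycin elements, and the controls carried a negative-control lentivirus. Each group held 3 arrays with 1 RNA sample each, and no label says whether the samples came from separate cultures, so p-values measure the spread between these samples, which may be technical.

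Protein synthesis starts when eIF2, bound to GTP and the initiator tRNA, joins the small ribosomal subunit with eIF1, eIF1A, eIF3 and eIF5, while the eIF4 factors bring in the capped mRNA. eIF2B then recharges eIF2 with GTP, and this exchange is blocked when kinases phosphorylate the alpha subunit of eIF2, a switch known as the integrated stress response. During elongation eEF1A delivers tRNAs and eEF2 moves the ribosome along the mRNA, and eEF2 kinase inhibits eEF2 by phosphorylation. In macrophages and microglia exposed to LPS these steps are known control points for cytokine production.

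All values below are scaled log2 signals, that is, the log2 intensity of a probe minus the 75th percentile of its own array, so that 0 is the level of that percentile. A gene was represented by the brightest of its probes that could be tested, and the groups were compared with limma over all 17062 genes tested, two-sided, with Benjamini-Hochberg adjustment and a threshold of 0.05. A log2 fold change is overexpression minus control, and standard errors are those of limma. With 3 arrays against 3, the smallest p of a two-sided exact permutation test of one gene is 0.1. The 75th percentile of the intensity ran from 1617 to 1893 in the controls and from 856 to 1268 with overexpression, so that the overexpression arrays were the dimmer ones. This scaling left all genes together with a median log2 fold change of 0.23, and quantile normalization left them at 0.03; the latter gives every array the same distribution of values. A member is therefore read against both scalings. The arrays lay on 2 slides, with replicates 1 and 2 of both groups on slide 1 and replicate 3 on slide 2. Neither probe of Ppargc1a, which encodes PGC-1α, passed the filter. The one well above background on more arrays had log2 intensities before scaling of 4.45, 4.29 and 3.18 in the controls and 4.48, 4.47 and 4.41 with overexpression. Scaled, these were -6.21, -6.37 and -7.71 in the controls and -5.70, -5.28 and -5.90 with overexpression. The difference was 1.14, and 0.84 after quantile normalization. For the other probe it was 0.26 and -0.07 in the same order. Whether either probe lies inside the vector's insert is not known here, so directions refer to the arrays as labelled. Of 16 microglia and macrophage marker genes on the array, 13 were well above background on all 6 arrays and Cx3cr1, P2ry12 and Sall1 on none. The summed linear signal of those 16 markers, in units of the 75th percentile, ran from 104 to 107 in the controls and from 140 to 166 with overexpression. That sum is set by the brightest of them, such as Itgam, Cd68 and Tyrobp, and in limma 5 of the 13 were called higher and 1 lower, Tmem119, by -2.68 (adjusted p = 4.4e-05). For 3 fibroblast markers, all well above background on all 6 arrays, the sum was 12.4 to 13.4 and 21.1 to 25, with Col1a1 and Col1a2 called higher and Pdgfra lower (-1.63, adjusted p = 0.00017). For 4 neuron markers, 2 of them well above background on all 6 arrays, it was 22 to 27.9 and 35.2 to 48.4. Nearly all of that sum was Snap25, at 4.46 to 4.80 in the controls and 5.14 to 5.59 with overexpression on the scaled log2 scale. Rbfox3, Syt1 and Map2 lay at about -3.5 or lower on every array. The sums were made with 75th percentile scaling only. The part of these markers in the differences described below was not tested. In cultured cells measured in bulk, fewer cells of a kind and less RNA per cell cannot be told apart.

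Of the 70 members, 66 could be tested. Eif5a2 was not well above background on any array. Eif3d had usable values on 2 control arrays and 1 overexpression array, too few for testing. Eif2a and Eif4a1 had values on 2 arrays of each group. With the spot on the remaining array dropped as an outlier, neither group counted as well above background on all 3 arrays. With 75th percentile scaling 33 of the 66 members were called higher and 8 lower, where 36.9% of all genes tested were called higher and 19.6% lower. After quantile normalization the same genes gave 5 called higher and 11 lower, against 23.1% and 22.3% of all genes. The groups did not overlap in 38 members that lay higher and 9 that lay lower, against 42.7% and 22.8% of all genes. Called in the same direction under both scalings were 5 members higher and 7 lower, against 23.0% and 19.0% of all genes. The 7 lower were Eif5b, Eif2ak4, Eef2k, Eif4ebp3, Eif2ak1, Eif2ak2 and Eif1ad, and the 5 higher Eef1a2, Eif1b, Eif2s3y, Eif2s3x and Eif4e1b. The median log2 fold change of the members was 0.39 with 75th percentile scaling, 0.17 above that of all genes, and -0.08 after quantile normalization, 0.10 below that of all genes. The median of the list thus lay above that of all genes with one scaling and below it with the other, while 12 members were called in the same direction under both. Leaving out 1 array lowered the calls with 75th percentile scaling to 19 higher without control replicate 1 or overexpression replicate 1 and to 21 without control replicate 2, and to 5 lower without control replicate 3 and 4 without overexpression replicate 1. Under both scalings together it left 3 to 5 higher and 4 to 7 lower, with the 3 and the 4 reached without control replicate 3 or overexpression replicate 1.

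**Figure D1:**
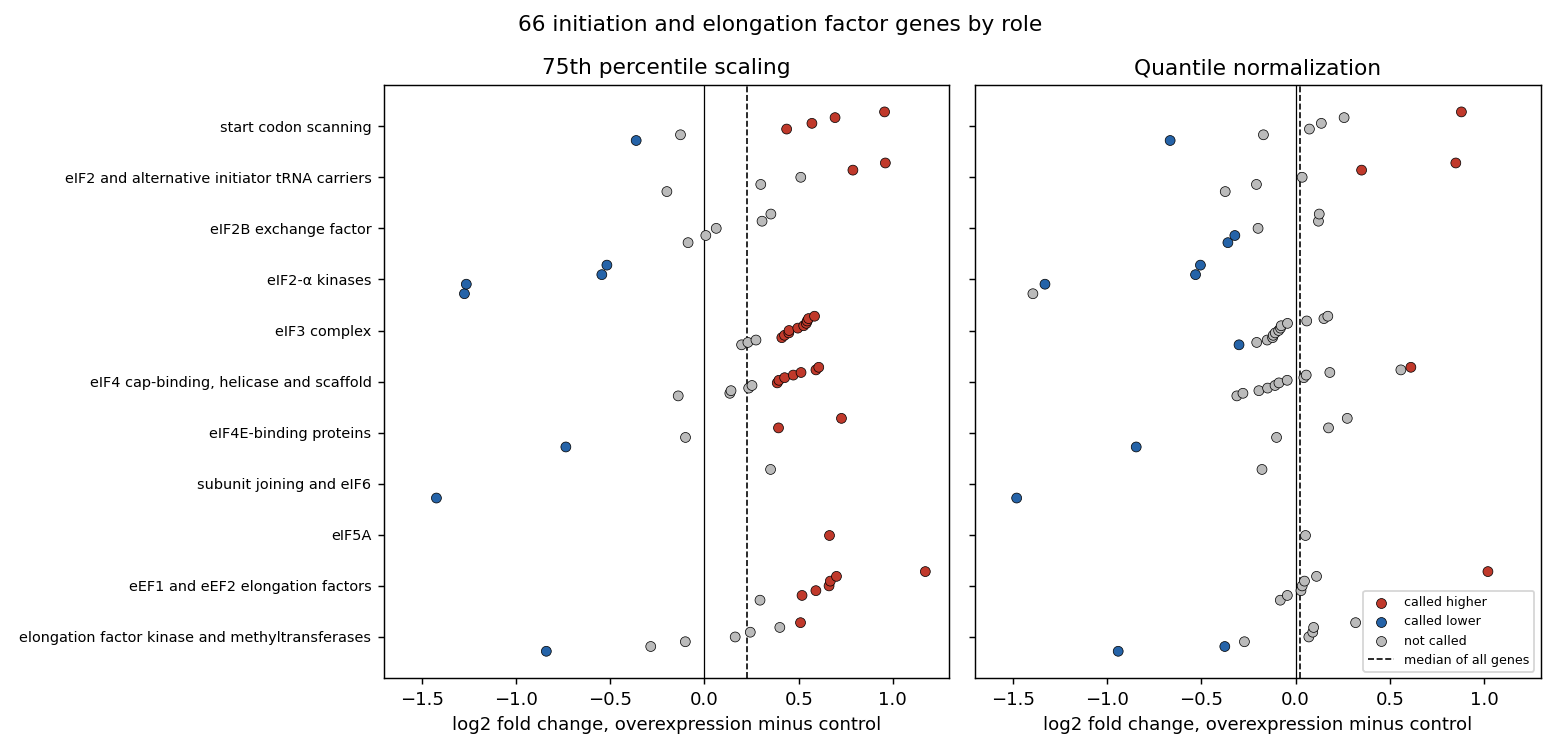
Log2 fold change (overexpression minus control) of the 66 genes tested, 1 point per gene, grouped by role, with 75th percentile scaling on the left and after quantile normalization on the right. Colour gives the limma call at an adjusted p of 0.05 and the dashed line the median of all genes, 0.23 and 0.03. The eIF2α kinases lay below 0 in both panels, while most eIF3 and elongation factor genes moved from above the dashed line to near it.

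Of the 7 members called lower under both scalings, 4 encode kinases that inhibit translation, namely Eif2ak1, Eif2ak2, Eif2ak4 and Eef2k. Promoter windows are shown for 3 of these kinase genes and for Eif1b, the gene of a start codon selection factor that was higher under both scalings. They are the 250 bases before the annotated start, read 5′ to 3′ along the gene, in RefSeq's mouse build GRCm38.p6. Capitals mark matches, on either strand, to the ERRα element TCAAGGTCA, the NRF-1 site CGCATGCG, the core CCGGAAG of GABP and other ETS factors, and the E-box CACGTG, none of which contains another. ERRα, NRF-1 and GABP are known partners of PGC-1α, and E-boxes are bound by MYC and related factors.
Eif2ak1 (chr5:143817542-143817791, plus strand): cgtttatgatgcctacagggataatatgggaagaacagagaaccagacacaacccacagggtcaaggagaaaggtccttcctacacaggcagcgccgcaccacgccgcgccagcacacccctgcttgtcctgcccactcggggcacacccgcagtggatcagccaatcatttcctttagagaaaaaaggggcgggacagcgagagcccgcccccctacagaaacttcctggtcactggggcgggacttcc
Eif2ak4 (chr2:118388367-118388616, plus strand): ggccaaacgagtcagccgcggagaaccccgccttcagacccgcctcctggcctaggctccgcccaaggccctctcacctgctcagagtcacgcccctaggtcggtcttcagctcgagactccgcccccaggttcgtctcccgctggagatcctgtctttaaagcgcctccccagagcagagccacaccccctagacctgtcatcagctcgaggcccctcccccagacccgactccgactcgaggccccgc
Eef2k (chr7:120842581-120842830, plus strand): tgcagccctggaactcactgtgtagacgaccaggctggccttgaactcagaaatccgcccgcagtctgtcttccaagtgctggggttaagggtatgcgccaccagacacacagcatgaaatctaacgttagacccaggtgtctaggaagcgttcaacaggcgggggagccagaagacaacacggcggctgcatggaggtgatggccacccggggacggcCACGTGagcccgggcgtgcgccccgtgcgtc
Eif1b (chr9:120492356-120492605, plus strand): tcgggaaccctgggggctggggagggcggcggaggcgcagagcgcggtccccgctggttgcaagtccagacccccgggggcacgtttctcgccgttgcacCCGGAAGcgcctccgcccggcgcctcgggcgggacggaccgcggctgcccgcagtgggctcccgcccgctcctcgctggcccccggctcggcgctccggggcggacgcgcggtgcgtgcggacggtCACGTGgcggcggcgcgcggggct
The windows of Eif2ak1 and Eif2ak4 held none of these letters, that of Eef2k held 1 E-box and that of Eif1b held 1 ETS core and 1 E-box. RefSeq lists 2 windows for Eif2ak4 and 3 for Eef2k, and the first is printed. The windows of these genes that are not printed held 0 matches, as did the 1 window of Eif2ak2. Of the 70 members, 54 had a window. An E-box was found in 13 of the 54 (24.1%), against 6.86% of the 27025 genes with a window, and an ETS core in 12 (22.2%), against 7.83%. The NRF-1 site was found in 3 members (5.56%), Eif2s1, Eif3k and Eif4h, against 1.75% of all genes, and the ERRα element in none, against 0.422%. Among the members called under both scalings, Eef2k and Eif1b held an E-box and Eif1ad and Eif1b an ETS core. The 27025 genes were not limited to the 23462 matched on the array, nor matched to the members for brightness or base content. The shares thus compare unlike sets of genes, and the source of their differences was not tested. The matches describe letters in a window and say nothing of binding.

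Read from their brightest tested probes, 4 of 4 eIF2α kinase genes were called lower with 75th percentile scaling, and 3 of 4 after quantile normalization. Of all genes, 19.6% and 22.3% were called lower in the same order. The median log2 fold change of the 4 was -0.90, and -0.93 after quantile normalization, where the median of all genes was 0.23 and 0.03. All 4 were also lower on each slide taken alone. Of all 17062 genes tested, 15411 had the same sign on both slides.

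Eif2ak4 (NM_013719) encodes GCN2, which senses uncharged tRNAs when amino acids run short. Its scaled log2 signal was -2.00, -1.77 and -1.84 in the controls and -2.96, -3.63 and -2.85 with overexpression. The groups lay apart, with overexpression replicate 2 the lowest array. In limma the log2 fold change was -1.27 (standard error 0.21, adjusted p = 0.0021) and -1.33 after quantile normalization (adjusted p = 0.0027). On slide 1 the difference was -1.41 and on slide 2 it was -1.00.

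Eif2ak3 (NM_010121) encodes PERK, the kinase of the endoplasmic reticulum that responds to unfolded proteins. Control replicate 2 had no usable value, and the signal was -2.81 and -1.91 in the other controls and -3.36, -4.46 and -3.06 with overexpression. On the log2 scale the change of -1.26 (standard error 0.44) passed with an adjusted p of 0.042 in limma and rested on those 5 arrays. It missed the threshold after quantile normalization (-1.39, adjusted p = 0.051) and, with 75th percentile scaling, without control replicate 3 (-0.81, adjusted p = 0.22), overexpression replicate 1 (-1.4, 0.066) or overexpression replicate 2 (-0.85, 0.070). A second probe of Eif2ak3, matched through another accession, showed no such fall. Its signal was -4.36, -4.45 and -4.47 in the controls and -4.40, -4.38 and -4.46 with overexpression, a difference of 0.01. The probes of this gene therefore disagreed.

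Eif2ak1 (NM_013557) encodes HRI, known from haem shortage and from stress signals out of mitochondria. The signal was 0.45, -0.22 and -0.01 in the controls and -0.43, -0.38 and -0.61 with overexpression. The groups did not overlap, and control replicate 2 lay nearest to the overexpression arrays. The estimate of the log2 fold change was -0.54 (standard error 0.18, adjusted p = 0.034 from limma) and -0.53 after quantile normalization (adjusted p = 0.049). The second probe gave -0.52, with groups that did not overlap either. The call did not hold without control replicate 1 (-0.36, adjusted p = 0.096) or 3 (-0.59, 0.058), nor without overexpression replicate 1 (-0.57, 0.076), 2 (-0.59, 0.054) or 3 (-0.48, 0.078).

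Eif2ak2 (NM_011163) encodes PKR, an interferon-inducible kinase that senses double-stranded RNA. The signal was -0.29, 0.03 and -0.11 in the controls and -0.66, -0.81 and -0.45 with overexpression. Every overexpression array lay below every control array. The log2 fold change was -0.52 (standard error 0.15, adjusted p = 0.018 from limma) and -0.50 after quantile normalization (adjusted p = 0.021). It missed the threshold without control replicate 2 (-0.44, adjusted p = 0.071) or overexpression replicate 1 (-0.51, 0.059).

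**Figure D2:**
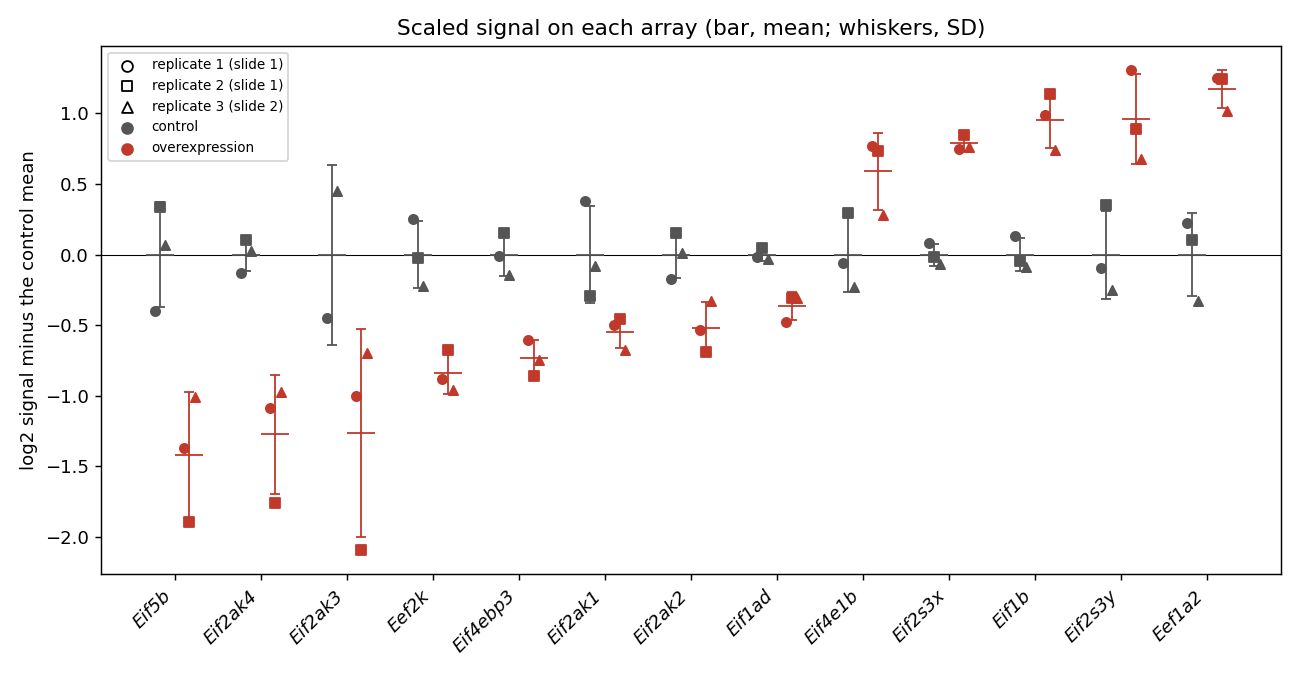
Scaled log2 signal of each array minus the control mean of its gene, for the 12 genes called under both scalings and Eif2ak3, ordered by log2 fold change. Grey symbols are control and red symbols overexpression arrays, with circles, squares and triangles for replicates 1, 2 and 3; horizontal bars are group means and whiskers SDs, and Eif2ak3 has 2 control arrays. The genes were shown because limma called them, which favours groups that lie apart. Red and grey symbols overlapped in Eif4e1b only. Of all genes tested, 42.7% lay higher and 22.8% lower without overlap.

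None of the 5 genes tested for eIF2 and the alternative carriers of initiator tRNA was called lower in limma under either scaling, and none was lower with an unadjusted p under 0.05. Eif2s1 (NM_026114), the alpha subunit of eIF2 that the kinases phosphorylate, had a signal of 3.34, 3.37 and 3.60 in the controls and 3.68, 3.71 and 3.80 with overexpression. In limma the log2 fold change of 0.30 (adjusted p = 0.074) was -0.21 after quantile normalization (adjusted p = 0.20), and neither value passed. Eif2s2, the beta subunit, gave 0.51 (adjusted p = 0.063) and 0.04 after quantile normalization (adjusted p = 0.91). The gamma subunit, which binds GTP and the initiator tRNA, is encoded by the nearly identical genes Eif2s3x on the X and Eif2s3y on the Y chromosome, and both were higher under both scalings.

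Eif2s3x (NM_012010) had a signal of 2.81, 2.71 and 2.66 in the controls and 3.48, 3.58 and 3.49 with overexpression. The arrays of each group were close to each other, and the groups lay far apart. On the log2 scale the change was 0.79 (standard error 0.12, adjusted p = 0.0014 from limma), and 0.35 after quantile normalization (adjusted p = 0.029). The value after quantile normalization missed the threshold without control replicate 2 (0.35, adjusted p = 0.082) or 3 (0.31, 0.082) and without overexpression replicate 1 (0.34, 0.094) or 3 (0.33, 0.079).

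Eif2s3y (NM_012011) had a signal of -4.06, -3.62 and -4.22 in the controls and -2.66, -3.07 and -3.29 with overexpression. Again no array of one group reached the other. The estimate of the log2 fold change was 0.96 (standard error 0.21, adjusted p = 0.0064 from limma) and 0.85 after quantile normalization (adjusted p = 0.0096). A second probe of Eif2s3y was well above background on 0 arrays and was not tested. Its log2 intensities before scaling ran from 1.45 to 2.92, and those of the tested probe from 6.59 to 7.52. The result therefore rests on 1 dim probe. Whether each probe binds only one of the copies was not tested. Eif2d, which encodes an alternative carrier of tRNA to the ribosome, gave -0.20 (adjusted p = 0.40) and was not called.

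For eIF2B, the exchange factor that the phosphorylated eIF2 blocks, 0 of 5 subunit genes were called in limma with 75th percentile scaling (range of log2 fold changes -0.09 to 0.35). With an unadjusted p under 0.05 there were 2, both higher. The median log2 fold change of the 5 was 0.06, below that of all genes. Eif2b5 (NM_172265), the catalytic epsilon subunit, had a signal of 1.84, 1.75 and 1.78 in the controls and 2.03, 2.37 and 2.03 with overexpression. The groups did not overlap, and the log2 fold change of 0.35 had an adjusted p of 0.057. After quantile normalization it was 0.12 (adjusted p = 0.41), and Eif2b1 (-0.32, adjusted p = 0.049) and Eif2b3 (-0.36, adjusted p = 0.028) were called lower.

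The largest decrease of any member was that of Eif5b (NM_198303), which encodes the GTPase that joins the ribosomal subunits at the end of initiation. Its signal was -2.20, -1.46 and -1.73 in the controls and -3.16, -3.69 and -2.80 with overexpression. No overexpression array reached the lowest control. The log2 fold change was -1.42 (standard error 0.26, adjusted p = 0.0031 from limma) and -1.48 after quantile normalization (adjusted p = 0.0038), with -1.60 on slide 1 and -1.07 on slide 2. It kept its call in all 24 alternatives run, between -0.97 and -1.71. Eif6 (NM_010579), a factor that keeps the large subunit from joining too early, had a signal of 3.65, 3.57 and 3.44 in the controls and 3.78, 4.21 and 3.72 with overexpression. In limma the log2 fold change of 0.35 was not called (adjusted p = 0.093), nor was the value of -0.18 after quantile normalization (adjusted p = 0.30).

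Of the 6 genes grouped by name under start codon scanning and selection, 4 were called higher and 1 lower with 75th percentile scaling. After quantile normalization it was 1 each. Of all genes, 36.9% were called higher and 19.6% lower, and 23.1% and 22.3% after quantile normalization. Eif1b (NM_026892), a close relative of the start codon selection factor Eif1, had a signal of 0.46, 0.28 and 0.24 in the controls and 1.31, 1.46 and 1.07 with overexpression. The lowest overexpression array lay above the highest control. On the log2 scale the change was 0.96 (standard error 0.14, adjusted p = 0.0015 from limma) and 0.88 after quantile normalization (adjusted p = 0.0018). Eif1 itself rose by 0.69 (adjusted p = 0.0040) with 75th percentile scaling but gave 0.14 after quantile normalization (adjusted p = 0.36). Eif5, whose product makes eIF2 hydrolyse its GTP, gave 0.57 (adjusted p = 0.0089) and 0.26 (adjusted p = 0.17) in the same order. Eif1ad, named for a domain like that of eIF1A, was the one that fell. Its log2 fold change was -0.36 (adjusted p = 0.031) and -0.67 after quantile normalization (adjusted p = 0.0027), and the smaller value missed the threshold without control replicate 1 (-0.37, adjusted p = 0.070), 2 (-0.34, 0.10) or 3 (-0.38, 0.065), or without overexpression replicate 1 (-0.30, 0.12).

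The subunit genes of eIF3, the large scaffold on the small ribosomal subunit, had log2 fold changes close to each other. Of 13 tested, 10 were called higher with 75th percentile scaling and 0 after quantile normalization in limma, nor any with an unadjusted p under 0.05. Their log2 fold changes lay between 0.20 and 0.58 with a median of 0.45, which is 0.22 above that of all genes. After quantile normalization the median was -0.09, the range -0.30 to 0.17, and 1 subunit gene, Eif3l, was called lower (-0.30, adjusted p = 0.044). Eif3a (NM_010123), the largest subunit, had a signal of 2.33, 3.00 and 2.91 in the controls and 3.11, 2.73 and 3.22 with overexpression. These groups overlapped, and the log2 fold change of 0.27 was not called (adjusted p = 0.29). When all genes tested were split into 4 equal groups by the mean log2 intensity of their probe, 12 of the 13 fell in the brightest group. In that group 1951 of all 4266 genes were called higher with 75th percentile scaling, and 345 after quantile normalization.

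**Figure D3:**
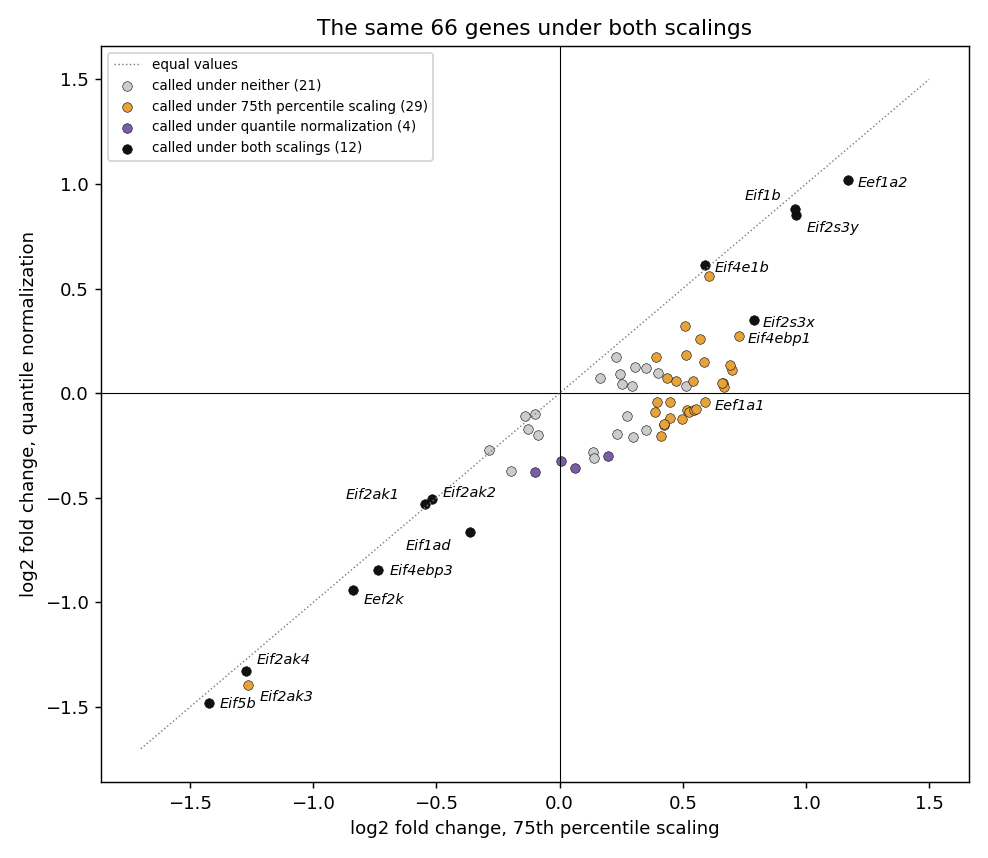
Log2 fold change of the 66 genes with 75th percentile scaling (horizontal axis) against the value after quantile normalization (vertical axis), 1 point per gene, coloured by the scaling under which limma called it. The 12 black points, called under both, include Eif5b at -1.42 and -1.48 and Eef1a2 at 1.17 and 1.02. The 29 orange points were called with 75th percentile scaling only, and most lie near 0 on the vertical axis.

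Among the eIF4 genes for cap binding, unwinding and scaffolding, 7 of 12 were called higher with 75th percentile scaling and 1 after quantile normalization. Of all genes, 36.9% and 23.1% were called higher in the same order. In limma 0 of the 12 were called lower under either (with an unadjusted p under 0.05, 0 before and 1 after quantile normalization). Of the 12, 9 lay in the brightest group. There 1951 of all 4266 genes were called higher with 75th percentile scaling, and 345 after quantile normalization. Eif4e (NM_007917), which binds the mRNA cap, had a signal of 0.09, 0.50 and 0.44 in the controls and 1.4, 0.64 and 0.81 with overexpression. Overexpression replicate 1 stood well above the others, though the groups did not overlap. The estimate of the log2 fold change was 0.61 (standard error 0.21, adjusted p = 0.040 from limma). It was 0.56 after quantile normalization (adjusted p = 0.064) and missed the threshold without control replicate 1 (0.48, adjusted p = 0.13), 2 (0.69, 0.056) or 3 (0.65, 0.066), or without overexpression replicate 1 (0.38, 0.12). A dimmer probe of Eif4e differed by -0.34, so that its probes disagreed in sign.

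The cap-binding relative Eif4e3 (NM_025829) had a signal of -1.03, -1.10 and -1.21 in the controls and -1.29, -1.28 and -1.20 with overexpression. The groups overlapped, with a log2 fold change of -0.14 (adjusted p = 0.34 from limma). Eif4e1b, an eIF4E relative known from oocytes, was the eIF4 gene called under both scalings. Its signal was -1.80, -1.45 and -1.97 in the controls and -0.97, -1.01 and -1.46 with overexpression. Control replicate 2 lay slightly above overexpression replicate 3. The log2 fold change was 0.59 (adjusted p = 0.029 from limma) and 0.61 after quantile normalization (adjusted p = 0.029), and its other tested probes gave 0.70 and 1.06. It missed the threshold without control replicate 1 (0.56, adjusted p = 0.078) or 3 (0.48, 0.090) and without overexpression replicate 1 (0.50, 0.099) or 2 (0.52, 0.080).

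Eif4g1 (NM_145941), the scaffold that links the cap to the ribosome, had a signal of 2.94, 2.97 and 2.85 in the controls and 3.25, 3.52 and 3.17 with overexpression. In limma the log2 fold change of 0.40 (adjusted p = 0.037) became -0.044 after quantile normalization (adjusted p = 0.76). With 75th percentile scaling it missed the threshold without any one array other than overexpression replicate 3 (adjusted p from 0.070 to 0.10). Eif4a2 (NM_001123038), one of the RNA helicases that unwind the mRNA leader, had a signal of 2.05, 2.28 and 2.66 in the controls and 2.82, 2.63 and 3.09 with overexpression. Here the groups overlapped. On the log2 scale the change was 0.51 (adjusted p = 0.048 from limma) and 0.18 after quantile normalization (adjusted p = 0.51), and the former missed the threshold without control replicate 1 (0.37, adjusted p = 0.15) or 2 (0.49, 0.12) and without overexpression replicate 1 (0.52, 0.10) or 3 (0.39, 0.13). Its paralog Eif4a1 (NM_144958) had usable values of 4.16 and 4.20 on control replicates 2 and 3 and of 4.39 and 4.47 on overexpression replicates 2 and 3, and was not tested. For Eif4e2, a cap-binding relative linked to repression, the probes disagreed. The brighter one gave 0.43 and the dimmer one -1.12, and neither let the groups overlap.

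The eIF4E-binding proteins, which hold eIF4E back from the scaffold, were called in both directions. Eif4ebp1 (NM_007918), the 4E-BP best known as a target of mTORC1, had a signal of 2.83, 2.82 and 2.81 in the controls and 3.45, 3.77 and 3.42 with overexpression. Every overexpression array lay above the controls, which were nearly equal. The estimate of the log2 fold change was 0.73 (standard error 0.14, adjusted p = 0.0033 from limma) and 0.27 after quantile normalization, where it missed the threshold (adjusted p = 0.061). Eif4ebp2 (NM_010124) had no usable value on control replicate 1, with 0.12 and 0.05 in the other controls and 0.09, -0.14 and -0.00 with overexpression. Over those 5 arrays the log2 fold change was -0.10 (adjusted p = 0.57 from limma). Eif4ebp3 (NM_201256) had a signal of 1.48, 1.65 and 1.35 in the controls and 0.89, 0.64 and 0.75 with overexpression. It was lower on every overexpression array. The log2 fold change was -0.74 (standard error 0.14, adjusted p = 0.0032 from limma) and -0.85 after quantile normalization (adjusted p = 0.0024). Of Eif4enif1, which encodes an eIF4E transporter, the brighter probe gave 0.39 and the dimmer one -0.96, the latter without a usable value on control replicate 1.

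Of the 7 genes named for eEF1 or eEF2 as elongation factors, 6 were called higher with 75th percentile scaling and 1 after quantile normalization. Of all genes, 36.9% and 23.1% were called higher in the same order. Eef1e1 (0.29, adjusted p = 0.11 from limma) was the one not called with 75th percentile scaling. The median log2 fold change of the 7 was 0.66, and 0.04 after quantile normalization. Of the 7, 6 lay in the brightest group. There 1951 of all 4266 genes were called higher with 75th percentile scaling, and 345 after quantile normalization. Eef1a1 (NM_010106), which encodes the main tRNA-delivering factor, had a signal of 4.80, 5.05 and 5.08 in the controls and 5.38, 5.71 and 5.60 with overexpression. The groups lay apart under this scaling. In limma the log2 fold change was 0.59 (standard error 0.14, adjusted p = 0.0094) but -0.044 after quantile normalization (adjusted p = 0.77). Eef2 (NM_007907), the translocase, had no usable value on control replicate 1, with 4.74 and 4.66 in the other controls and 5.31, 5.57 and 5.33 with overexpression. Over those 5 arrays the log2 fold change was 0.70 (adjusted p = 0.0074 from limma) and 0.11 after quantile normalization (adjusted p = 0.51). Eif5a (NM_001166589), the hypusine-bearing factor that helps stalled ribosomes, had a signal of 4.17, 4.30 and 4.06 in the controls and 4.79, 5.08 and 4.65 with overexpression. It followed the same course, with 0.66 (adjusted p = 0.0073 from limma) and 0.05 (adjusted p = 0.79).

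Eef1a2 (NM_007906), the paralog of Eef1a1 known from neurons and muscle, was the elongation factor called under both scalings. Its signal was -4.42, -4.54 and -4.98 in the controls and -3.39, -3.40 and -3.63 with overexpression, in the dimmest group of genes but well above background on all 6. The groups did not overlap. On the log2 scale the change was 1.17 (standard error 0.17, adjusted p = 0.0013 from limma) and 1.02 after quantile normalization (adjusted p = 0.0018), and it kept its call in all 24 alternatives, between 0.53 and 1.29. The median log2 fold change of the dimmest group of genes was itself 0.54, and 0.35 after quantile normalization.

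The gene of the kinase of eEF2 fell. Eef2k (NM_007908), which encodes eEF2 kinase, had a signal of 1.69, 1.41 and 1.21 in the controls and 0.55, 0.77 and 0.48 with overexpression. Each overexpression array lay below each control array. The estimate of the log2 fold change was -0.84 (standard error 0.16, adjusted p = 0.0036 from limma) and -0.94 after quantile normalization (adjusted p = 0.0028). All 4 probes of the gene were lower without overlap, by differences from -0.84 to -1.38, and the call held in all 24 alternatives. Among 6 methyltransferase genes that modify eEF1A or eEF2, Eef1akmt2 was called higher with 75th percentile scaling (0.51, adjusted p = 0.030; 0.32 after quantile normalization, adjusted p = 0.17) and Eef1akmt1 lower after quantile normalization (-0.38, adjusted p = 0.040; -0.10 before, adjusted p = 0.58).

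The members differed from the other genes in how bright they were, a property of the probe as well as of the RNA. In the brightest of the 4 groups lay 47 of the 66 members (71.2%). In that group the median log2 fold change of the other 4219 genes was 0.35 with 75th percentile scaling and -0.03 after quantile normalization, and that of the 47 members was 0.43 and -0.04. The 2 middle groups, with 18 members, changed little between scalings, with medians of all genes of 0.04 and -0.05 before and 0.03 and -0.07 after. Of the 8 members called lower with 75th percentile scaling, 7 lay in these middle groups and Eif1ad in the brightest. Of the 33 called higher, 28 lay in the brightest group, and 1 of these 28, Eif2s3x, was called after quantile normalization. In that group 61.7% of the members and 50.3% of the other genes were called in either direction with 75th percentile scaling. After quantile normalization these shares were 12.8% and 21.3%. By then 345 of all 4266 genes there were called higher and 559 lower, and 1 and 5 of the 47 members. Before any scaling, the median difference of the members was -0.27 and that of all genes -0.44. The part of brightness in the members' differences was not tested.

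**Figure D4:**
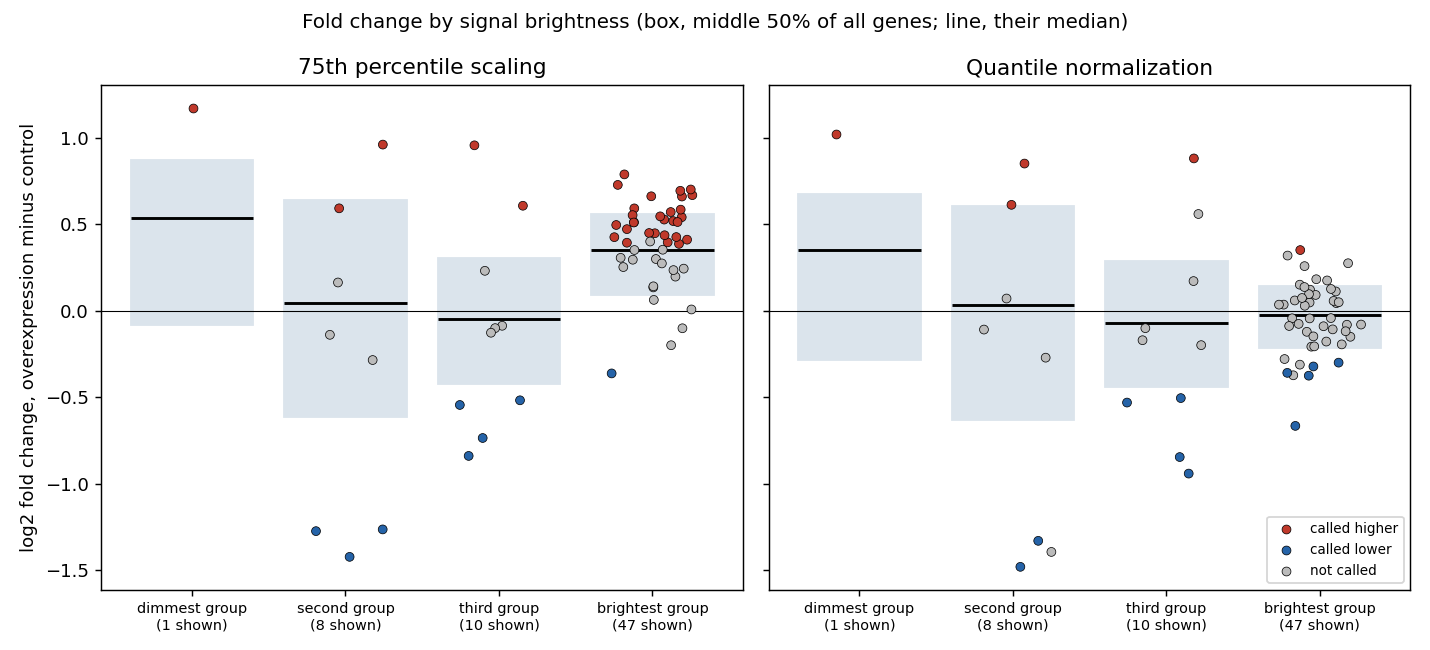
Log2 fold change of the members (points, coloured by limma call) by signal brightness, in 4 equal groups of all genes tested, with 75th percentile scaling on the left and after quantile normalization on the right. Boxes span the middle 50% of all genes in the group and black lines their median. In the brightest group the median was 0.35 on the left and -0.03 on the right, and the 47 members there moved with it, while the members called lower in the middle groups stayed in place.

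Other genes of translation control were taken from a list of 55 on the array, of which 53 could be tested. With 75th percentile scaling 19 were called higher and 9 lower, against 36.9% and 19.6% of all genes. In either direction 52.8% of the 53 were called, against 56.5% of all genes. Under both scalings 9 were called higher and 8 lower, against 23.0% and 19.0% of all genes. The calls of this list were thus not more frequent than those of all genes with 75th percentile scaling. The median log2 fold change of the 53 was 0.19, close to the 0.23 of all genes. By a limit of 1 from that median, 1 gene stood out, Pelo (NM_134058), which encodes a factor that rescues stalled ribosomes. Its signal was 1.59, 1.35 and 1.20 in the controls and 0.28, 0.53 and 0.33 with overexpression, a log2 fold change of -1.00 (adjusted p = 0.0013 from limma) and -1.09 after quantile normalization. Among the genes that act on eIF2α beside the kinases, Ppp1r15a, the stress-induced subunit that brings a phosphatase to eIF2, rose by 0.95 (adjusted p = 0.0018) and Dnajc3, an inhibitor of PKR and PERK, by 0.72 (adjusted p = 0.0039), and both were also called after quantile normalization. The other 3 of these 5 genes were not called with 75th percentile scaling, where the GCN2 partner Gcn1 gave -0.12 and Impact, an inhibitor of GCN2, -0.62. After quantile normalization Gcn1 was called lower (-0.45, adjusted p = 0.013). Of 11 mTORC1 genes and substrates tested, Mlst8 was called higher under both scalings (0.48 and 0.51), and Rptor (-0.43 and -0.42) and the S6 kinase gene Rps6kb1 (-0.62 and -0.70) lower. Of the 2 kinase genes of eIF4E, Mknk1 was called lower under both (-0.40 and -0.58). Among 8 genes that modify eIF5A with hypusine or eEF2 with diphthamide, Dph6 was called higher under both scalings (0.43 and 0.46), and Dph2 (-0.66 and -0.67) and Dph7 (-0.54 and -0.50) lower. Of 5 genes for the poly(A)-binding protein and its partners, Paip2 (0.94 and 0.64) and Paip2b (0.55 and 0.50), whose products inhibit that protein, were called higher under both. Of 9 mitochondrial translation factors tested, Guf1 was called higher (0.77 and 0.69) and Mtrf1l lower (-0.50 and -0.49) under both.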

How the data were processed

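Total RNA of 6 BV2 samples was amplified and labelled, and each sample was hybridized to 1 Agilent mouse array. The deposited intensity values came from the authors' scanner software, which corrects each spot of the green channel for background and spatial trend and leaves the arrays unscaled. Normalized log2 values that the authors made in GeneSpring, deposited for some probes, served as an alternative. The small number of arrays limits the precision, as does the background for dim probes.

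Here log2 intensities were expressed relative to the 75th percentile of the array (59305 spots, controls excluded). Outlier spots were dropped and repeats of a probe averaged. Accessions matched 33767 of 56605 probes (59.7%) to a RefSeq gene symbol. Testing required values on at least 2 arrays per group and, in 1 group or both, a signal well above background on every one of its 3 arrays. Each gene was read from its brightest such probe, giving 17062 genes, and 766 of these lacked a value on some array. Probe coordinates are not given, since the array design names an older assembly than the RefSeq table. The fit used lmFit and eBayes (limma 3.58.1, R 4.3.3) and was tested on simulated data. Python 3.11.15, pandas 2.3.3, numpy 2.4.6 and matplotlib 3.10.9 made tables and plots. Values on every array are given for the 10 members farthest from the median of all genes, among those called without overlap, and for 22 members chosen by role. Members and lists were chosen with earlier results of these data known. Alternatives covered the scaling, the background (normexp, offset of 50), the filter on dim probes, averaging of probes, blocks for slide or replicate number, limma's trend and robust options, the authors' log2 values, and leaving out each array. Combining quantile normalization with a left-out array or the slide block was added after seeing the data.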

Additional observations from a re-analysis of the deposited data

How the results depend on the processing

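The count of members called higher depended most on the scaling. From 33 it moved to 5 after quantile normalization, 19 when scaled to the median of each array, 6 after normexp and quantile normalization, 5 with the authors' log2 values, and 6 after quantile normalization with slide as a block. The count called lower, 8, moved to 13 after normexp and quantile normalization, 14 after quantile normalization with slide as a block and 5 with no filter on dim probes. With each array left out in turn, 19 to 29 members were called higher and 4 to 7 lower, and 7417 to 9668 genes in all against 9633; with quantile normalization besides, these were 3 to 5, 5 to 9, and 5805 to 7666. The member median relative to all genes, 0.17, reversed to -0.10 after quantile normalization, -0.047 after normexp and quantile normalization, -0.096 with the authors' log2 values and -0.10 after quantile normalization with slide as a block, and was 0.042 with no filter on dim probes. With an array left out it was 0.11 to 0.18, and -0.099 to -0.050 after quantile normalization.

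Named genes that changed sign were Eef1a1 (-0.044 after quantile normalization, with or without slide as a block, -0.049 after normexp and quantile normalization, -0.054 with the authors' log2 values, and 0.50 to 0.68 with an array left out, or -0.10 to -0.0086 with quantile normalization besides), Eif4g1 (-0.044 after quantile normalization, with or without slide as a block, -0.046 with the authors' values, and 0.29 to 0.47 and -0.088 to -0.0024 in the same order), Eif5a (0.54 to 0.75 with an array left out, or -0.044 to 0.13 with quantile normalization besides), and Eif2ak3 (0.014 with a filter on all 6 arrays, which leaves its other probe). Eif2s1, Eif3a and Eif6, called in neither of the main scalings, also changed sign. They gave -0.21, -0.11 and -0.18 after quantile normalization, with or without slide as a block, -0.29, -0.16 and -0.23 after normexp and quantile normalization, and -0.20, -0.11 and -0.18 with the authors' log2 values. With an array left out they ranged from 0.25 to 0.38, 0.065 to 0.42 and 0.20 to 0.44, and with quantile normalization besides from -0.27 to -0.14, -0.34 to 0.071 and -0.26 to -0.11. The calls of Eif5b, Eif2ak4, Eef2k, Eif4ebp3, Eif1b, Eef1a2 and Eif2s3y held in all 24 alternatives. With the replicate number as a block, 34 members were called higher and 8 lower, and 10561 genes in all. Same-numbered arrays deviated from their group means with correlations of -0.16, 0.071 and 0.60. Those with different numbers ranged from -0.51 to 0.50. The deviations within a group are tied to each other through its mean, and replicate 3 also shares slide 2. These correlations therefore cannot decide whether the numbers pair the samples.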
